A study of Mus musculus with 12 samples.

Results

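The immunoglobulin locus genes of mouse brain were described across 12 RNA-seq libraries, as 9 constant regions, 36 variable segments and the J chain gene. Members were the rows whose gene name begins like a variable or constant segment of the heavy, kappa or lambda locus, plus Jchain, with at least 10 reads summed over the 12 libraries. Of 43346 genes in the deposited table, 314 rows carried such a name and 47 reached 10 reads. A further 100 rows had 1 to 9 reads and 167 had none. The pattern also took in 20 diversity segment rows, none of which reached 10 reads, and Ighmbp2, a helicase gene on chromosome 19 that is no immunoglobulin gene. It is counted among the 47 and among the tested members, and its own values are given apart. Jchain stands in the table under its older symbol Igj and was matched by its identifier ENSMUSG00000067149. The members just inside the limit, with 10 reads each, were Igkv3-5, Ighv1-4 and Iglv2, and the rows just outside, with 9 reads each, were Igkv4-72, Ighv1-7 and both rows named Igkv19-93.

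The libraries formed 3 groups of 4, all labelled wild type, from a cut of brain that held cortex and hippocampus. The Old_CP2 group, C57BL/6;SJL-Tg by its strain label and aged 23 months, drank CP2, an inhibitor of mitochondrial complex I, from 9 months of age. Its dose was 25 mg/kg per day, dissolved in water with 0.1% PEG. The Old group matched it in strain label and age, and drank water with PEG alone over the same time. The Young group, C57BL/6 by its label and aged 3 months, was untreated, so Old differed from Young in age, in strain label and in vehicle, whose parts cannot be told apart. The design text of the series speaks of APP/PS1 mice while the sample titles begin with NTG, and the labels do not settle this. Nor do they state that libraries came from different animals, so p-values measure only the spread between libraries, which may be technical. Libraries keep the numbers of their titles, 11, 12, 13 and 15 for Old_CP2, 7, 8, 9 and 10 for Old and 1, 3, 4 and 5 for Young, and values per library are given in that order.

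Antibody genes are built in B cells, which join a variable segment, a joining segment and, in the heavy chain, a diversity segment into an exon that is then spliced to a constant region. Each B cell clone keeps its own joined variable segment, so the segments seen in a tissue report on the clones in it. The constant region sets the class: Ighm and Ighd in naive cells, and Ighg, Igha or Ighe after class switching. Plasma cells, the secreting end stage, carry very high levels of these transcripts, and J chain links IgA and IgM into polymers. The dural meninges and the choroid plexus are known sites of plasma cells and B cells at the border of the brain, and normal brain tissue itself holds few.

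The germline ends of 8 variable segments are shown because their reads mark 1 group or 1 library in what follows. They were chosen after the values were seen. They are reference sequences from GENCODE vM21 transcripts (GRCm38, the build of the files), not sequences of these mice. Each is the last 90 coding bases, written on the strand of the gene. The capitals run from the last in-frame cysteine codon to the germline end, the stretch that enters the junction with the J or D segment. The first pair carried most of the variable reads in Young, at chr6:67556127-67556216 (+) and chr12:114788372-114788461 (-).
Igkv2-137: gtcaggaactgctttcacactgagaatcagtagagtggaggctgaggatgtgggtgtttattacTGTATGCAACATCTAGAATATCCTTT
Ighv1-26: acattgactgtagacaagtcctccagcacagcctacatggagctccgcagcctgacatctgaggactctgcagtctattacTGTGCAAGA
The next 4 were prominent in the library Old_CP2 11, at chr6:68807179-68807268 (-), chr6:68303069-68303158 (+), chr6:68631963-68632052 (-) and chr12:115158403-115158492 (-).
Igkv4-90: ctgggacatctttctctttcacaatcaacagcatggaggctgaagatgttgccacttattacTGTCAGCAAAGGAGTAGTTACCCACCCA
Igkv2-109: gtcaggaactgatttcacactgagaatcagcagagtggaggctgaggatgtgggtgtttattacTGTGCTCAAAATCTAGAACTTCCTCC
Igkv10-96: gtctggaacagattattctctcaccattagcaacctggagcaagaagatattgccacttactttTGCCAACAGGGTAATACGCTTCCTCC
Ighv1-53: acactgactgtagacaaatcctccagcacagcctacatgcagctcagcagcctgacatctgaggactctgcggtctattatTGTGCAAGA
The last pair was prominent in the library Old_CP2 15, at chr6:69858420-69858509 (-) and chr6:70518760-70518849 (+).
Igkv12-41: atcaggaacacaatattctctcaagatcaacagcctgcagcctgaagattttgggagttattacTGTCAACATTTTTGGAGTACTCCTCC
Igkv3-12: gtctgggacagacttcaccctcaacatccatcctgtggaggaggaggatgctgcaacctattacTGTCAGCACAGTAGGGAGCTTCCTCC
Over the last 270 coding bases Igkv2-109 and Igkv2-137 were 90% identical and Ighv1-53 and Ighv1-26 were 89.3% identical. Within each pair most reads lay in different groups. Old_CP2 11 and Old 10, with 63 and 6 Igkv2-109 reads, also had the most Igkv2-137 reads of the aged libraries (6 each). Over all 36 variable members, the nearest other segment had a median identity of 95.6% (range 74.8 to 98.1%), and 9 members had a neighbour at 97% or more. Among these is Ighv1-26, which is 97.4% identical to Ighv1-18. How the authors' counting treated reads that fit several segments is not given in the sources used here, so the split between near-identical segments is uncertain.

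Libraries held 70548781 to 99449665 counted reads, 77469073 or more in each Young library. Levels are given as reads, or as CPM (reads relative to library size, scaled with TMM factors), where 1 CPM stood for 68.0 to 98.2 reads. Only 12 of the 47 members passed the filter on low counts and were tested: 8 constant regions, Jchain, Igkv2-137, Ighv1-26 and Ighmbp2. The filter keeps a row that is high in 1 group, so the tested rows are not a neutral sample of the members. A member is called at an adjusted p under 0.05 in edgeR's quasi-likelihood test over 22553 genes, and every adjusted p comes from that test unless another tool is named. In bulk tissue, fewer cells of a type and less RNA per cell cannot be told apart.

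Between Old and Young the heavy chain classes differed. Igha and Ighg2b, which encode the constant regions of IgA and of a switched IgG, rose in Old, while the variable segments Igkv2-137 and Ighv1-26 fell. Those 2 segments were the only variable ones tested. They passed the filter mainly through their Young reads, so their direction does not speak for the other segments. Ighm, the IgM constant region and the most read immunoglobulin gene, was not called in any comparison. Between Old_CP2 and Old no member passed the test. In Old_CP2 the excess of Igha over Old rested on library 11, the level of Ighg3 on library 15 and that of Igkc on both. Ighg1 was read mainly in 3 of the 4 Old libraries. Ighg2c, the IgG2c constant region of C57BL mice, was higher in every Old_CP2 library than in any Old or Young library, a difference called against Young and not against Old.

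Across the tested members, Old_CP2 over Old gave no call among 12, where 0.0266% of all genes were called higher, 0.0177% lower and 0.0443% in either direction. DESeq2 called 1 and limma voom 0. Ighm, Ighg2c, Ighg3 and Ighg1 had an unadjusted p under 0.05 in edgeR. The share of all genes at that unadjusted limit was not counted, so nothing is read from it. Ighg2c was the only member whose groups did not overlap, and was higher, as were 1.62% of all genes, and none was lower throughout, as were 1.82% of all genes. The median log2 fold change over the 12 was 0.43, against 0.0017 over all genes. Old over Young gave 2 called higher of 12 (3.96% of all genes) and 2 called lower (2.74% of all genes, and 6.7% in either direction). The 2 called lower, Igkv2-137 and Ighv1-26, passed the filter mainly through their Young reads. Counts of members lower than Young, here and below, are therefore no result about the members. The groups did not overlap for 1 member higher and 3 lower, as for 6.94% and 6.32% of all genes, and the median log2 fold change was 0.65 (all genes -0.0034). Old_CP2 over Young gave 4 called higher of 12, Igha, Ighg2c, Ighg2b and Jchain (4.63% of all genes), and 1 called lower, Igkv2-137 (2.94% of all genes, and 7.57% in either direction). There the same 4 and the same 1 did not overlap, as for 8.42% and 7.07% of all genes, and the median was 0.77 (all genes -0.0076). The comparisons share libraries, so their calls are not independent of each other. Ighmbp2 was level, at 11.8 ± 1.04 CPM in Old_CP2, 12 ± 0.758 in Old and 11.8 ± 0.827 in Young (SD, n = 4 each), with adjusted p of 0.877 or more. It is among the 12. Over the 11 members without it the calls were the same, and the medians were 0.49, 0.70 and 0.83 in the order of comparisons above.

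**Figure D1:**
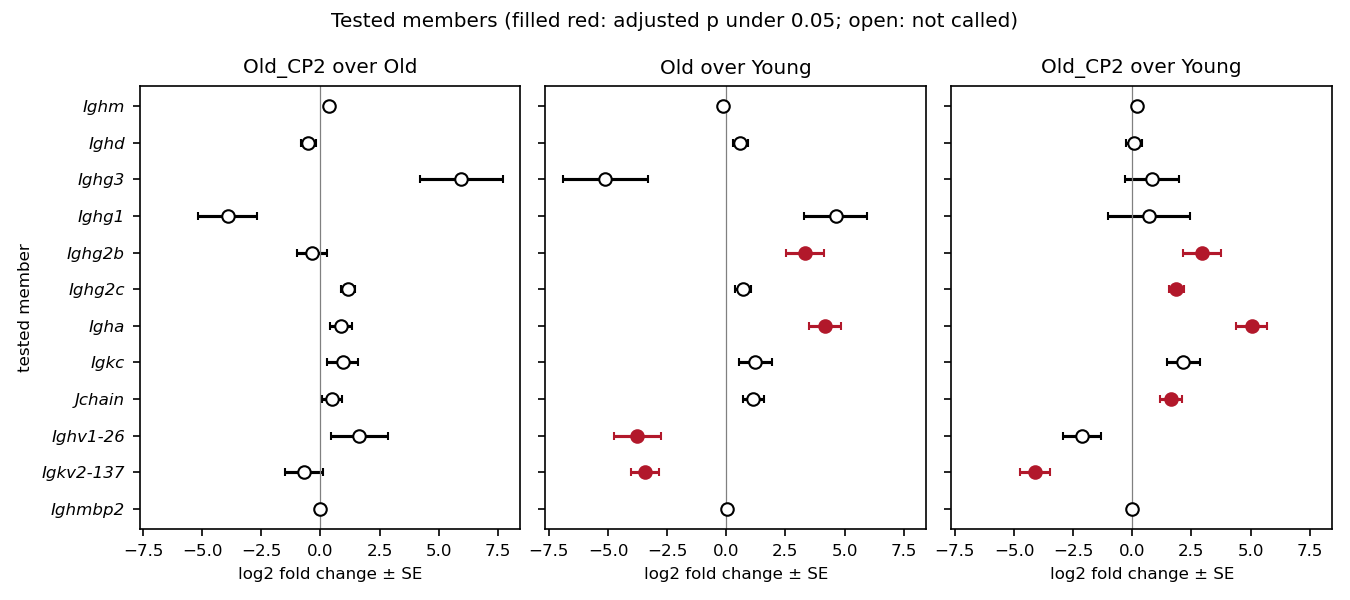
Log2 fold change ± SE from edgeR of the 12 tested members, for Old_CP2 over Old, Old over Young and Old_CP2 over Young from left to right, with filled red points called at an adjusted p under 0.05. The left panel has no filled point, and Igha and Igkv2-137 are filled in both panels that involve Young.

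Igha (chr12:113254830-113260236) showed the largest called rise. It measured 3.62, 0.876, 0.846 and 0.855 CPM in Old_CP2, 1.08, 0.853, 0.694 and 0.733 CPM in Old, and 0.104, 0.0111, 0.0511 and 0.0223 CPM in Young. All 8 libraries of the aged groups lay above all 4 Young libraries, and Old_CP2 11 stood far above the rest. The Young libraries held 8, 1, 4 and 2 reads, so the size of the change rests on few reads in that group. Igha was 4.18 ± 0.665 (log2 fold change ± SE) higher in Old than in Young (adjusted p = 0.00412) and 5.06 ± 0.655 higher in Old_CP2 than in Young (adjusted p = 0.00109). Without Young 1 these were 4.88 and 5.76, and without Old_CP2 11 the second was 4.20, all called. Over Old it was 0.88 ± 0.472 in Old_CP2 (adjusted p = 0.82), and 0.03 without Old_CP2 11.

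Ighg2c (chr12:113285325-113288932) measured 4.96, 2.09, 2.28 and 2.1 CPM in Old_CP2, 1.22, 1.41, 0.843 and 1.64 CPM in Old, and 0.531, 1.13, 0.728 and 0.736 CPM in Young. Old_CP2 did not overlap either other group, while Old and Young overlapped. Red blood cell genes were also higher in every Old_CP2 library than elsewhere (228 to 444 CPM in Old_CP2, 81.7 to 148 CPM in Old and 59.3 to 91.0 CPM in Young, summed), and their part in the Ighg2c level was not tested. The group means were 2.86 ± 1.40, 1.28 ± 0.336 and 0.781 ± 0.250 CPM in Old_CP2, Old and Young (SD, n = 4 each). Ighg2c rose by 1.87 ± 0.320 on the log2 scale in Old_CP2 over Young (adjusted p = 0.00467). The difference of Old_CP2 over Old was 1.17 ± 0.310 (adjusted p = 0.381), and 0.76 without Old_CP2 11. That of Old over Young was 0.70 ± 0.323 (adjusted p = 0.227). DESeq2 alone called Ighg2c between Old_CP2 and Old (adjusted p = 0.0438), whereas the adjusted p ran up to 0.89 over the other settings.

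Ighg2b (chr12:113302965-113307933), the IgG2b constant region, had 44, 40, 17 and 15 reads in Old_CP2, 4, 22, 21 and 90 reads in Old, and 1, 4, 5 and 3 reads in Young. The Old_CP2 libraries all lay above the Young ones, while Old 7 lay within the Young range in reads and CPM. Ighg2b rose by 3.32 ± 0.794 on the log2 scale in Old over Young (adjusted p = 0.0272) and by 2.96 ± 0.800 in Old_CP2 over Young (adjusted p = 0.0407). Both calls were marginal. The call in Old was lost without Old 10 (2.37, adjusted p = 0.0672), and without any 1 of the Young libraries 1, 3, 4 and 5 (adjusted p = 0.052 to 0.0682). The call in Old_CP2 was lost without Old_CP2 11 (2.71, adjusted p = 0.103) or Old_CP2 12 (2.80, adjusted p = 0.089), and without any 1 of the 4 Young libraries (adjusted p = 0.0688 to 0.1). Limma voom gave neither call (2.65, adjusted p = 0.15 in Old and 2.86, adjusted p = 0.107 in Old_CP2). Old_CP2 over Old was -0.36 ± 0.622 (adjusted p = 0.939).

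Ighg3 and Ighg1 each had a large share of their reads in 1 library. Ighg3 (chr12:113359575-113361232), the IgG3 constant region, had 7, 4, 2 and 497 reads in Old_CP2, 2, 0, 0 and 6 reads in Old, and 83, 89, 65 and 55 reads in Young. The 4 Young libraries were alike, all 4 Old libraries lay below them, and in Old_CP2 the library 15 alone lay above them while the other 3 lay below. Ighg3 was not called in Old over Young (-5.12 ± 1.794, adjusted p = 0.11), although the groups did not overlap. With only those 2 groups in the fit it was called (-5.12, adjusted p = 0.00261), as it was without the 4 libraries poorest in choroid plexus genes, Old_CP2 11 and 15 and Old 7 and 9, a setting added after seeing the data (-4.54, adjusted p = 0.00913). It was not called in Old_CP2 over Young (0.83 ± 1.158, adjusted p = 0.725), and without Old_CP2 15 it fell by 4.22 (adjusted p = 0.00234). Over Old, Ighg3 in Old_CP2 was 5.95 ± 1.761 (adjusted p = 0.484), and 0.90 without Old_CP2 15.

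Ighg1 (chr12:113325240-113330523), the IgG1 constant region, had 0, 0, 2 and 12 reads in Old_CP2, 0, 36, 23 and 154 reads in Old, and 0, 6, 2 and 0 reads in Young. Old 10 held 65.5% of all Ighg1 reads, and Old 7 had none, like several libraries of the other groups. Ighg1 was not called in Old_CP2 over Old (-3.92 ± 1.241, adjusted p = 0.55, and -6.19 to -2.71 with any 1 library left out) or in Old over Young (4.62 ± 1.346, adjusted p = 0.0586). Without Old 7 the second difference was called (5.04, adjusted p = 0.0229), as it was without the 4 libraries poorest in choroid plexus genes (5.45, adjusted p = 0.0115).

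Ighm (chr12:113418558-113422730) measured 13.3, 9.73, 12.1 and 16.4 CPM in Old_CP2, 9.67, 11.3, 9.24 and 9.74 CPM in Old, and 9.69, 10.3, 12.9 and 11.4 CPM in Young, and all groups overlapped. Its log2 fold changes were 0.37 ± 0.138 for Old_CP2 over Old (adjusted p = 0.715), -0.15 ± 0.139 for Old over Young (adjusted p = 0.597) and 0.22 ± 0.138 for Old_CP2 over Young (adjusted p = 0.382). Ighd, the IgD constant region that lies next to Ighm, had 19 to 27 reads in Old_CP2, 23 to 39 in Old and 13 to 31 in Young, with adjusted p of 0.311 or more. Ighe, the IgE constant region, had no read in any library, which allows up to 3 reads over each group.

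**Figure D2:**
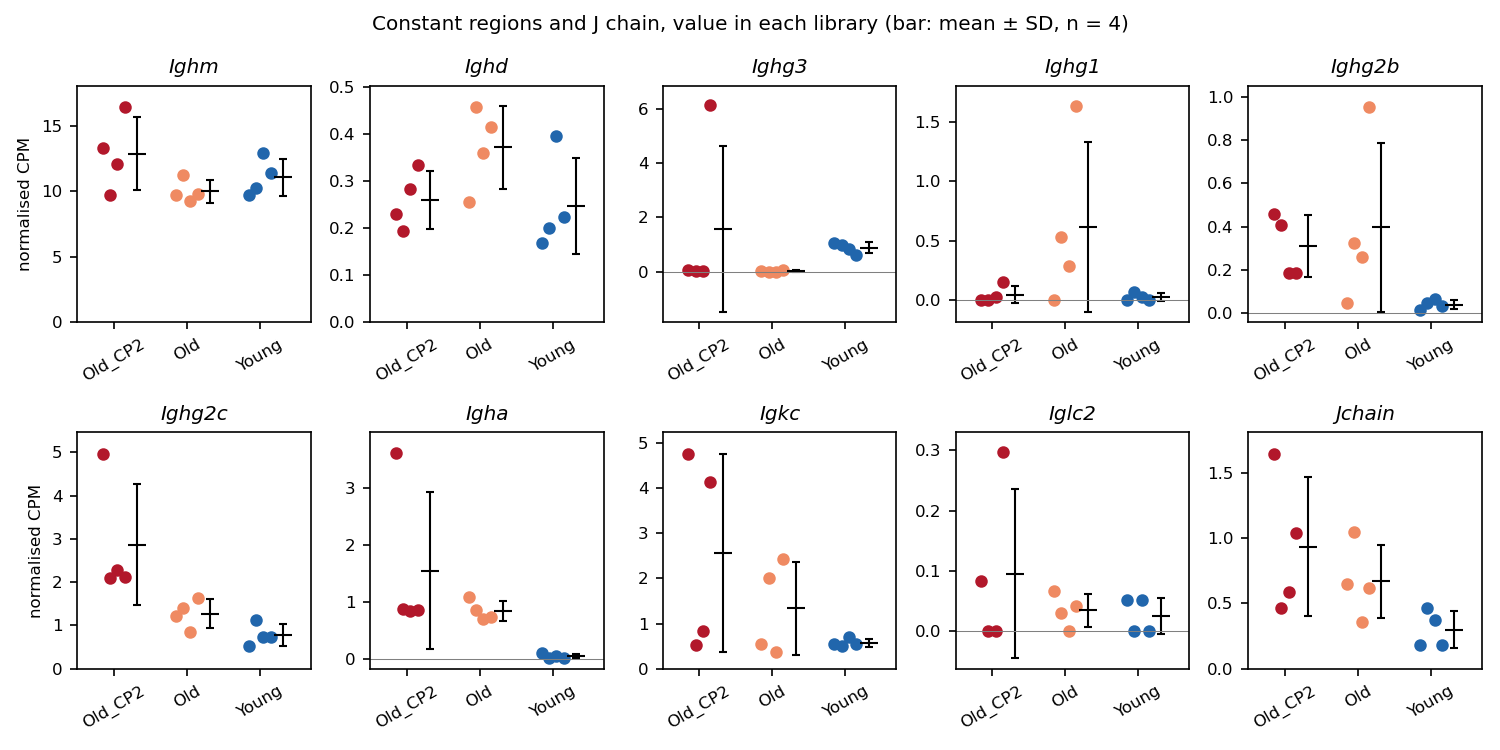
TMM-normalised CPM of the 9 constant regions and Jchain, 1 point per library, with the mean and SD of 4 libraries as a black bar beside each group. Igha is near 0 in Young and Ighg2c is highest in Old_CP2, while the Old_CP2 mean of Ighg3 rests on library 15 at 6.16 CPM and the Old mean of Ighg1 on library 10 at 1.64 CPM.

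The shares of the classes in all heavy constant reads show the same libraries apart. Ighm took 58.7, 73.0, 76.8 and 62.5% of these reads in Old_CP2, 78.7, 75.9, 79.1 and 64.2% in Old, and 83.7, 80.8, 86.0 and 87.5% in Young. Every Young library had a larger Ighm share than every library of the aged groups. Igha took 3.26 to 16.0% in Old_CP2, 4.83 to 8.81% in Old and 0.0871 to 0.894% in Young. The highest Igha share, in Old_CP2 11, had an exact binomial 95% interval of 14.5 to 17.6%. Ighg3 took 23.5% of heavy constant reads in Old_CP2 15 (interval 21.7 to 25.4%), at most 0.322% in the other Old_CP2 libraries, at most 0.42% in Old, and 4.70 to 9.27% in Young. Reads are not independent molecules, so such intervals cover counting error only. Outside Ighm, the summed heavy constant level was 9.34, 3.60, 3.63 and 9.81 CPM in Old_CP2, 2.62, 3.57, 2.44 and 5.44 CPM in Old, and 1.89, 2.43, 2.09 and 1.63 CPM in Young. Libraries 11 and 15 of Old_CP2 were the highest of all, and libraries 12 and 13 lay within the range of Old.

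**Figure D3:**
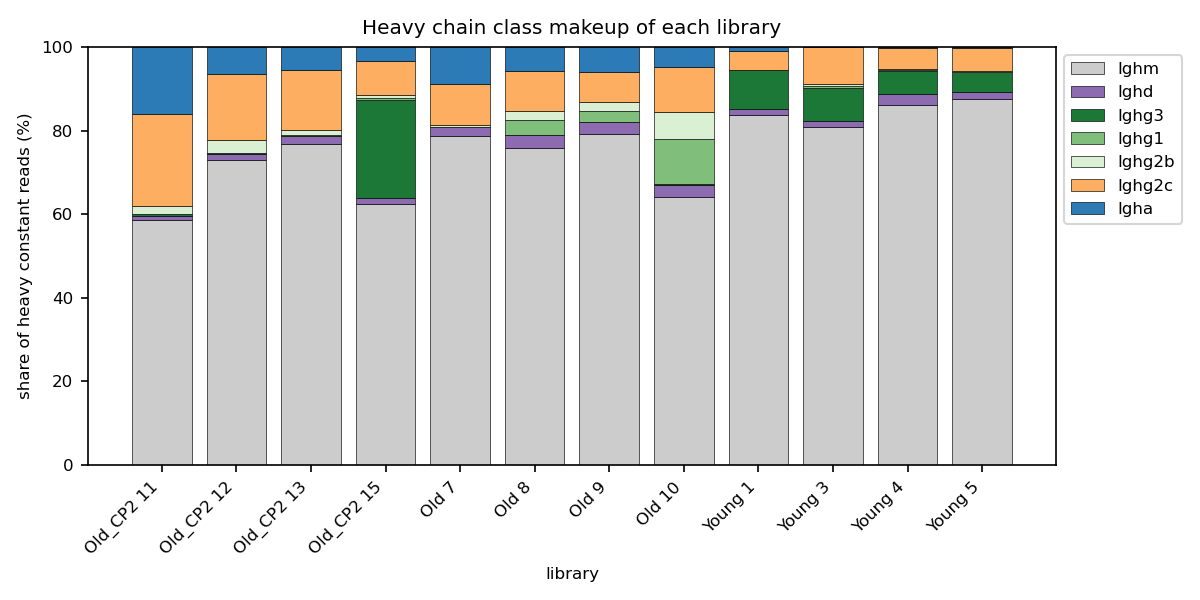
Share of all heavy constant reads (%) taken by each class, 1 stacked bar per library, with Old_CP2 at the left, Old in the middle and Young at the right. Igha takes at most 0.894% in Young and at least 3.26% in the aged groups, Ighg3 takes 4.70 to 9.27% in Young and 23.5% in Old_CP2 15, and Ighg1 is seen mainly in Old 8, 9 and 10.

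The kappa constant region Igkc (chr6:70726435-70726757), shared by all kappa light chains, measured 4.76, 0.529, 0.846 and 4.13 CPM in Old_CP2, 0.553, 2.0, 0.372 and 2.42 CPM in Old, and 0.544, 0.498, 0.702 and 0.546 CPM in Young. Old_CP2 11 and 15 and Old 8 and 10 lay above all other libraries, and the remaining 4 of the aged groups lay at 0.372 to 0.846 CPM, around the Young ones. Igkc was not called: the log2 fold change was 0.94 ± 0.662 for Old_CP2 over Old (adjusted p = 0.853), 1.22 ± 0.707 for Old over Young (adjusted p = 0.35) and 2.16 ± 0.704 for Old_CP2 over Young (adjusted p = 0.0822). The last was called without Old_CP2 12 (2.51, adjusted p = 0.0448) and by DESeq2 on all libraries (2.16, adjusted p = 0.0418). Without the 4 libraries poorest in choroid plexus genes Old over Young was called (1.95, adjusted p = 0.00421). The lambda constant region Iglc2 had 8, 0, 0 and 24 reads in Old_CP2, 6, 2, 0 and 4 in Old, and 4, 0, 4 and 0 in Young. It was too low to be tested.

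Levels of different genes can be set side by side only per length, for which the deposited RPKM values were used. The ratio of Igkc to Ighm in RPKM was 2.09, 0.317, 0.409 and 1.47 in Old_CP2, 0.333, 1.03, 0.235 and 1.45 in Old, and 0.327, 0.282, 0.317 and 0.279 in Young. Ighm thus exceeded Igkc per length in every Young library and in 4 of the aged ones, Old_CP2 12 and 13 and Old 7 and 9. Mean RPKM was 6.74 ± 5.75 for Igkc and 5.79 ± 1.30 for Ighm in Old_CP2, 3.35 ± 2.6 and 4.29 ± 0.307 in Old, and 1.44 ± 0.231 and 4.77 ± 0.658 in Young (SD, n = 4). Igkc overlaps the annotated lincRNA Gm30211, which was not analysed here. The library kit does not mark strand, so reads of the overlap cannot be told apart.

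Jchain (chr5:88520512-88527891), the link of IgA and IgM polymers, had 158, 46, 54 and 84 reads in Old_CP2, 59, 71, 29 and 58 in Old, and 14, 42, 29 and 16 in Young. In CPM these were 1.64, 0.468, 0.585 and 1.04 in Old_CP2, 0.652, 1.04, 0.360 and 0.616 in Old, and 0.181, 0.465, 0.370 and 0.178 in Young. The lowest Old_CP2 library lay only just above the highest Young one, and Old overlapped both. Jchain rose by 1.64 ± 0.452 on the log2 scale in Old_CP2 over Young (adjusted p = 0.0442). It was 1.15 ± 0.457 in Old over Young (adjusted p = 0.161) and 0.49 ± 0.427 in Old_CP2 over Old (adjusted p = 0.882). The call was lost without Old_CP2 11 (1.21, adjusted p = 0.144), without Old_CP2 15 (1.59, adjusted p = 0.0738), and without Young 1, 4 or 5 (1.47, 1.76 and 1.46, adjusted p = 0.111, 0.0762 and 0.111). It was also lost in limma voom (1.56, adjusted p = 0.0773) and with only the 2 groups in the fit (1.64, adjusted p = 0.055). Without both Old_CP2 11 and 15 it was 0.82 (adjusted p = 0.361), and without the 4 libraries poorest in choroid plexus genes 0.82 (adjusted p = 0.302).

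A pair of variable segments was read mainly in Young, and 20 of the 36 had more than 50% of their reads in 1 aged library. Igkv2-137 (chr6:67555636-67556216), a kappa variable segment, had 6, 0, 2 and 0 reads in Old_CP2, 2, 2, 2 and 6 reads in Old, and 25, 32, 38 and 38 reads in Young. All 4 Young libraries lay above all 8 others. Igkv2-137 fell by 3.42 ± 0.590 on the log2 scale in Old over Young (adjusted p = 0.00612) and by 4.11 ± 0.625 in Old_CP2 over Young (adjusted p = 0.00267), or by 5.49 without Old_CP2 11. In Young it took 43.9 to 64.4% of all variable reads, more than any other segment. It overlaps the lincRNA Gm42889 on the same strand in GENCODE vM21, which was not analysed here, and reads of the overlap cannot be assigned to either.

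Ighv1-26 (chr12:114788372-114788805), a heavy variable segment, had 1, 0, 1 and 9 reads in Old_CP2, 2, 0, 0 and 1 reads in Old, and 16, 11, 13 and 6 reads in Young. Old lay below Young throughout, and Old_CP2 15 lay within the Young range. With 3 reads in Old against 46 in Young, the ratio of reads scaled to depth was 0.0657 (95% counting interval 0.0131 to 0.204). Ighv1-26 fell in Old over Young by 3.76 ± 0.992 on the log2 scale (adjusted p = 0.0396). That call was lost without any 1 of Young 1, 3 and 4 or Old 7, 8, 9 and 10 (log2 fold changes from -4.66, without Old 7, to -3.41, adjusted p = 0.0599 to 0.0944), without the filter on low counts (-3.77, adjusted p = 0.0582), and without the 4 libraries poorest in choroid plexus genes (-4.21, adjusted p = 0.0737). In Old_CP2 over Young it was -2.12 ± 0.802 (adjusted p = 0.131), and without Old_CP2 15 it fell by 4.05 (adjusted p = 0.0148). Limma voom called it on all libraries (-2.78, adjusted p = 0.0398). Igkv6-20, a kappa segment also read in Young, had 3, 6, 7 and 3 reads in Old_CP2, 6, 0, 3 and 2 in Old, and 12, 0, 8 and 5 in Young. The groups overlapped, and its nearest segment was 98.1% identical.

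Other highly read segments were prominent in 1 library of the aged groups. Igkv12-41 had 5, 0, 2 and 112 reads in Old_CP2, 0, 6, 0 and 1 in Old, and none in Young. Igkv3-12 had 2, 0, 0 and 40 reads in Old_CP2 and none in Old or Young. Old_CP2 15 thus held most reads of both, and Igkv12-41 took 52.6% of its variable reads (exact binomial 95% interval 45.6 to 59.4%).

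Igkv4-90 had 72, 0, 0 and 0 reads in Old_CP2, 0, 0, 0 and 7 in Old, and none in Young. Igkv2-109 had 63, 0, 0 and 2 reads in Old_CP2, 0, 0, 0 and 6 in Old, and none in Young. Old_CP2 11 held 91.1% of Igkv4-90 reads and 88.7% of Igkv2-109 reads, and Old 10 a few of both. Ighv1-53 had 50, 0, 0 and 0 reads in Old_CP2, 1, 1, 1 and 0 in Old, and none in Young. Igkv10-96 had 32, 0, 0 and 3 reads in Old_CP2, 6, 0, 0 and 4 in Old, and none in Young. Old_CP2 11 was again the highest, at 94.3% of all Ighv1-53 reads and 71.1% of all Igkv10-96 reads.

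Iglv1, a lambda variable segment, had 23, 15, 3 and 0 reads in Old_CP2, 3, 4, 0 and 4 in Old, and none in Young. Igkv1-135 had 13, 0, 1 and 4 reads in Old_CP2, 0, 16, 7 and 0 in Old, and 1, 0, 0 and 0 in Young. These 2 were spread over several aged libraries. A group total of 0 allows up to 3 reads over the 4 Young libraries. Iglv1 overlaps an annotated antisense gene, 2010309G21Rik, that was not analysed here.

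Counted over all 36 variable members, 28 had no read in Young and 8 had some, 3 had none in Old, and every one had reads in Old_CP2. More segments were read in aged libraries than in Young ones: each library showed reads of 30, 15, 16 and 18 variable members in Old_CP2, 15, 18, 8 and 23 in Old, and 6, 5, 5 and 6 in Young. Among all 282 variable rows of the table, whatever their total, 56, 36, 39 and 30 had reads in Old_CP2, 31, 41, 20 and 56 in Old, and 9, 8, 7 and 9 in Young. The members were chosen by a total over all 12 libraries, so a segment read in only a few libraries could qualify. Old_CP2 supplied 707 of the 1229 member reads and Young 237, so the choice favours segments of the aged libraries. How many members lack reads in a group is therefore partly set by the choice and is no result about the groups. Only the counts over all 282 rows are free of it. Other rows of similar totals were not compared. Of the 36, 16 had reads in 3 or fewer libraries, none had reads in all 12, and 20 had more than 50% of their reads in 1 library. That library was Old_CP2 11 for 8 segments, Old 8 for 4, Old_CP2 15 for 3, Old_CP2 13 and Old 10 for 2 each and Old_CP2 12 for 1. The 25 variable members not named above had 10 to 34 reads each.

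**Figure D4:**
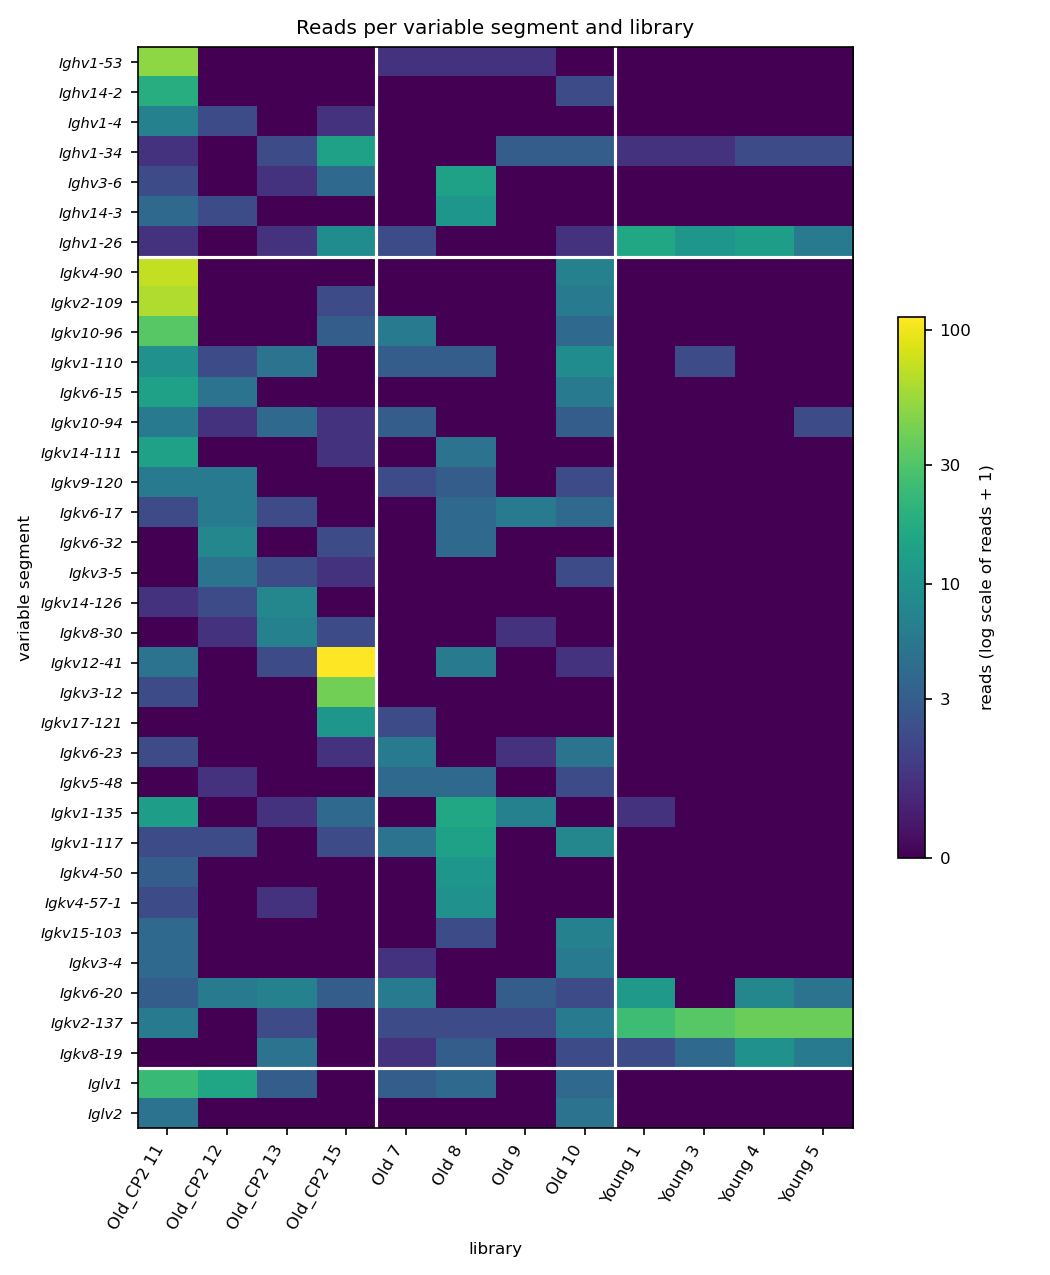
Reads of each of the 36 variable members (rows: heavy, kappa and lambda, divided by white lines) in each library (columns, with Old_CP2, Old and Young from left to right), coloured on a log scale of reads + 1. Igkv2-137 and Ighv1-26 are bright across Young, while single aged libraries show their own bright rows, up to 112 reads of Igkv12-41 in Old_CP2 15.

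Old_CP2 11 held 30.7% and Old_CP2 15 held 17.3% of the 1229 variable reads of all libraries. Summed variable levels were 3.92, 0.652, 0.575 and 2.64 CPM in Old_CP2, 0.519, 1.72, 0.298 and 1.03 CPM in Old, and 0.738, 0.553, 0.907 and 0.658 CPM in Young. All 3 groups overlapped, and Old_CP2 12 and 13 lay within the range of both other groups. Without Igkv2-137 the Young sums were 0.414, 0.199, 0.421 and 0.234 CPM, against 0.553 to 3.86 CPM in Old_CP2 and 0.273 to 1.69 CPM in Old. Igkv2-137 was left out for its high Young reads, and no segment high in an aged library was left out in turn. The gap between Young and Old_CP2 in these sums follows from that choice and is no result. No test was made on a sum over members.

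Lists of genes around antibody production were counted in the same fit. Beside the list counts here and below stand the shares over all genes. In Old_CP2 over Old 0.0266% were called higher and 0.0177% lower. In Old over Young these were 3.96% and 2.74%, and in Old_CP2 over Young 4.63% and 2.94%. Of 14 tested B cell markers, none was called in Old_CP2 over Old, 3 were higher in Old over Young and 4 in Old_CP2 over Young. Pax5, a B cell transcription factor also used at the midbrain-hindbrain boundary, rose by 3.89 ± 0.519 in Old and by 4.15 ± 0.517 in Old_CP2 over Young. Cd22, a B cell lectin also found on aged microglia, rose by 2.71 ± 0.507 in Old and by 3.69 ± 0.496 in Old_CP2. Cd37, a tetraspanin of leukocytes, rose by 0.49 and 0.42 in Old and Old_CP2. Cd79a, a signalling chain of the B cell receptor, rose by 0.98 ± 0.266 in Old_CP2 over Young (adjusted p = 0.0411) and was 0.71 ± 0.270 in Old over Young (adjusted p = 0.139).

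Defining B cell markers had few reads. Ms4a1, which encodes CD20, had 24, 8, 27 and 24 reads in Old_CP2, 9, 6, 12 and 15 in Old, and 9, 13, 5 and 10 in Young. Old_CP2 15, the library with the high Ighg3 and Igkv12-41, had the most reads of that group for Pax5 (135), Cd79b (45), Pou2af1 (56), Spib (43) and Blk (25), and for the plasma cell chaperone Mzb1 (50). It had the fewest for Btla (33), Cd37 (306), Cd72 (2071) and Bank1 (86), in reads not scaled for its smaller library. Old_CP2 11, the library with the high Igha and Ighg2c, had the fewest reads of Old_CP2 for Mzb1 (4) and Fkbp11 (66). Other plasma cell and secretion genes went the other way in reads. Old_CP2 11 had the most reads of Old_CP2 for Slamf7 (39), Tnfrsf13b (177), Xbp1 (6677) and Creld2 (985). For Irf4 (71) it had as many reads as library 15, and for the rest of that list its reads lay in between. These reads are not scaled either, and library 11 was larger than library 15 (94210856 against 78021395 counts). Scaled to library size, Irf4 was lower in library 11 than in 15, and Creld2 was not highest in library 11. Summed over the list, B cell markers were at 36.0 to 40.2 CPM in Old_CP2, 36.5 to 48.6 in Old and 29.3 to 42.9 in Young.

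Of 15 plasma cell and secretion genes, none was called in Old_CP2 over Old, 1 was higher in Old over Young and 2 in Old_CP2 over Young. The median log2 fold change of the list was 0.009 in Old over Young and 0.037 in Old_CP2 over Young. Xbp1, Prdm1, Sdc1, Tnfrsf17 and Mzb1 were not called in any comparison. Irf4, a transcription factor of plasma cells, rose by 1.06 ± 0.225 in Old (adjusted p = 0.0155) and by 1.21 ± 0.224 in Old_CP2 over Young (adjusted p = 0.00669). Slamf7, a surface receptor of plasma cells and other leukocytes, rose by 2.96 ± 0.621 in Old_CP2 over Young (adjusted p = 0.0131). The list summed to 253 to 271 CPM in Old_CP2, 247 to 269 in Old and 246 to 260 in Young. None of 5 tested precursor and recombination genes was called in any comparison.

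Of 8 genes that bind or carry antibody, none was called in Old_CP2 over Old, 1 was higher in Old over Young and 4 in Old_CP2 over Young. Fcgr2b, the inhibitory IgG receptor, rose by 1.08 ± 0.185 in Old and by 1.14 ± 0.184 in Old_CP2 over Young. The activating receptors Fcgr3 (0.68 ± 0.131) and Fcgr1 (0.50 ± 0.121) and their shared chain Fcer1g (0.90 ± 0.212) rose in Old_CP2 over Young. Pigr, which carries IgA and IgM across epithelia, and Fcgrt, which protects IgG from breakdown, were not called (log2 fold changes of 0.01 to 0.12). Of 11 homing and survival factors, only Cxcl12, a chemokine that retains plasma cells, was called, 0.32 ± 0.089 higher in Old_CP2 over Young (adjusted p = 0.0456). Of 8 T cell genes, Cd8a was called higher and Cd4 lower over Young in both aged groups, and none was called in Old_CP2 over Old.

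Markers of blood, choroid plexus and meninges differed in level between the libraries. Of the 7 red blood cell genes, whose summed levels are given beside Ighg2c, 2 were called higher in Old_CP2 over Old (Hba-a1 and Hba-a2), 1 in Old over Young and all 7 in Old_CP2 over Young. The 12 choroid plexus genes summed to 30.5 to 856 CPM in Old_CP2, 34.1 to 995 in Old and 1256 to 2019 in Young, and none was called in any comparison. Their median log2 fold change was nonetheless -1.45 in Old over Young and -1.58 in Old_CP2 over Young. Every Young library lay above every aged library in the sum. The lowest were Old_CP2 11 and 15 and Old 7 and 9, with 30.5 and 72.3 CPM in that pair of Old_CP2 and 178 and 34.1 CPM in that pair of Old. In Old_CP2 the libraries highest in Igkc and summed variable levels, 11 and 15, were thus the poorest in choroid plexus genes, whereas in Old the libraries highest in both, 8 and 10, were the richest (995 and 819 CPM). Of 12 meningeal fibroblast genes none was called in Old_CP2 over Old, and 4 were higher and 1 lower over Young in each aged group. That list summed to 220 to 287 CPM in Old_CP2, 212 to 320 in Old and 195 to 330 in Young. The 10 cortex and hippocampus neuron genes were present in all libraries at 3065 to 3868 CPM, with none called in Old_CP2 over Old and 2 higher over Young in each aged group. The part of blood, choroid plexus and meninges in the immunoglobulin levels was not tested. Leaving out the 4 libraries poorest in choroid plexus genes kept Igha and Igkv2-137 called in both comparisons with Young and Ighg2c called in Old_CP2 over Young. That setting was chosen after seeing the data. The aged libraries kept, at 819 to 995 CPM of choroid plexus genes, still lay below Young, so it is no test of that part.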

How the data were processed

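RNA was sequenced from 12 brain libraries, as total RNA prepared without strand marking, in paired reads of 101 bases, per the labels' protocols and the series' design text. Alignment and counting used TopHat and featureCounts of Subread on mm10, per the submitters' processing notes, and versions and annotation release are not given in the sources used here. Per the file headers, the deposited table holds 1 whole-number count and 1 RPKM value per gene and library, both made by the authors. Counts were used as deposited. RPKM was used only to set genes side by side per length. Reads were placed on germline segments, so reads across a joined or mutated variable segment may have been lost, which was not tested.

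The fit used edgeR 4.0.16 under R 4.3.3 (filterByExpr, TMM factors, quasi-likelihood F test, two-sided, Benjamini-Hochberg over 22553 genes, all 12 libraries, group as the only term), after testing on simulated data. The SE is the log2 fold change divided by the root of F. Shares have exact Clopper-Pearson 95% intervals. Alternatives were DESeq2 1.42.0, limma voom 3.58.1, other scaling, no filter, only the groups compared and each library left out. Identities were computed with edlib 1.3.9.post1. Annotation came from GENCODE vM21, where 45 of 47 members matched by identifier, and sequences from its transcripts. Members and the 10 gene lists were chosen with earlier results of these data known. Named members were all constant regions, Jchain, the 10 most read variable segments (11 with a tie) and any called member. From the lists, every called gene was eligible for naming, and others were named where they define a cell type, some after their values were seen. Some list genes are not reported here.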

Additional observations from a re-analysis of the deposited data

Results flagged for a closer look

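In each group of 4 libraries, the gap of the highest or lowest library to its neighbour was set against the range of the group, for named members with at least 10 reads in the highest library, a limit chosen after seeing the data. This covered 36 groups of values, and a library stood apart in 10, all in Old_CP2. Chance flags about 1 in 20 groups of normally distributed values. That rate does not apply here and sets nothing aside, since the members were named for high read totals, and a segment read almost entirely in 1 library had to stand apart. Within Old_CP2, library 11 stood apart for Ighg2c at 4.96 CPM (477 reads), Igha at 3.62 CPM (348 reads), Igkv4-90 at 0.749 CPM (72 reads), Igkv2-109 at 0.656 CPM (63 reads), Ighv1-53 at 0.520 CPM (50 reads) and Igkv10-96 at 0.333 CPM (32 reads). Library 15 stood apart for Ighg3 at 6.16 CPM (497 reads), Igkv12-41 at 1.39 CPM (112 reads), Igkv3-12 at 0.496 CPM (40 reads) and Ighg1 at 0.149 CPM (12 reads).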

How the results depend on the processing

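Igha and Igkv2-137 stayed called in both comparisons with Young under all alternatives run (15 for Old, 16 for Old_CP2), as did Ighg2c in Old_CP2 over Young (adjusted p at most 0.0249). In Old_CP2 over Old, DESeq2 called 1 member where edgeR called 0, and leaving out 1 library gave 0 to 0. Leaving out 1 library gave 2 to 4 called members in Old over Young (4 with all) and 3 to 6 in Old_CP2 over Young (5 with all). The count was 2 in Old over Young without Young 1, 3 or 4 or Old 10, and 3 in Old_CP2 over Young without Young 1, 4 or 5 or Old_CP2 11. Over all genes DESeq2 called 108, 2479 and 2647 in Old_CP2 over Old, Old over Young and Old_CP2 over Young, where edgeR called 10, 1511 and 1707.

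Leaving out Old_CP2 11 and 15, chosen after seeing the data, gave log2 ratios of summed levels over Old of 0.040 for heavy constant without Ighm, -1.0 for light constant and -0.54 for variable, and over Young of 0.85, 0.20 and -0.22. It turned Old_CP2 over Old for Jchain (-0.33), Igkc (-0.95) and Ighv1-26 (-0.62), and Old_CP2 over Young for Ighg1 (-1.06), Ighg3 (-4.73), Ighd (-0.043) and Ighm (-0.015). Leaving out the 4 libraries poorest in choroid plexus genes, also chosen after seeing the data, gave sums over Old of -0.32, -1.71 and -1.17. It turned Old_CP2 over Old for Jchain (-0.64), Igkc (-1.68), Ighg3 (-0.19) and Ighv1-26 (-0.17), and Old_CP2 over Young for Ighg1 (-1.06), Ighg3 (-4.73), Ighd (-0.044) and Ighm (-0.016).

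Limma voom turned Ighg2b in Old_CP2 over Old (0.21) and Ighg3 in Old_CP2 over Young (-2.6). Leaving out 1 library also changed the sign of some values that were not called. In Old_CP2 over Old, Ighg2b ran between -0.74 and 0.59 and Ighv1-26 between -0.30 and 2.55. In Old_CP2 over Young, Ighg1 ran between -1.57 and 2.09, Ighg3 between -4.22 (called, without Old_CP2 15) and 1.25, and Ighd between -0.067 and 0.39. The cause was not tested. Most variable members had too few reads for a test. No paired analysis was possible because the groups share no replicate numbers.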

Other observations

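Joining segments, short rows that the name rule does not take in, were looked at after the values of the members were seen. Igkj2, a kappa joining segment, had 51, 0, 1 and 4 reads in Old_CP2, 2, 2, 3 and 4 in Old, and 10, 1, 6 and 7 in Young. Igkj1 had 5, 6, 13 and 24 reads in Old_CP2, 5, 3, 0 and 17 in Old, and 1, 2, 0 and 0 in Young. The highest Igkj2 value was in Old_CP2 11 and the highest Igkj1 value in Old_CP2 15, the libraries with the highest variable sums. Ighj1, a heavy joining segment, had 13, 5, 7 and 14 reads in Old_CP2, 3, 10, 12 and 18 in Old, and 1, 14, 23 and 24 in Young, with overlap between all groups.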
